A study of Mus musculus with 4 samples.

Results

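The autophagy machinery was examined as 35 genes, from the kinases that start an autophagosome to the receptors that load it, in the transcriptomes of recruited alveolar macrophages. The genes were chosen by symbol from knowledge of the pathway, with earlier results of these data known. Only symbols among the 16360 of the count table were kept, so the presence of all 35 is not a result. All 35 passed the filter on low counts. The cells came from R213G mice and from wild-type (WT) mice, with 2 libraries per genotype. R213G mice were homozygous for the R213G form of EC-SOD, the secreted superoxide dismutase encoded by Sod3, an allele carried by the whole animal and not by macrophages alone. WT mice carried the normal form. Both genotypes were males of 8 to 10 weeks, labelled as strain CD57/Bl6, and every mouse had received intratracheal bleomycin (100 µl, 1 U/ml), so the libraries hold no uninjured lung. Macrophages were sorted after 7 days by high CD64, low Siglec-F and high CD11b, and poly(A) RNA was sequenced. Separate mice per library are not stated in the labels, and the p-values therefore measure the spread between libraries, which may be technical.

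Autophagy encloses cytoplasm, damaged organelles or microbes in a new membrane sac, the autophagosome, which fuses with the lysosome. A kinase complex built on Ulk1 or Ulk2 starts the process, a lipid kinase complex built on Pik3c3 marks the site with the lipid PI3P, and Atg9a and Atg2 proteins bring membrane to it. Enzymes related to the ubiquitin pathway then attach the small Atg8-family proteins (LC3 and GABARAP) to the membrane, and cargo receptors such as p62, encoded by Sqstm1, bind both these proteins and the cargo. In macrophages, parts of the same machinery also act on phagosomes that hold microbes or dying cells. Transcript levels measure the supply of these components and do not measure the rate of autophagy.

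The libraries held 33488569 to 35176210 counts each, and levels are given as CPM, counts scaled to the size of the library. R213G replicate 1 stood apart, with 13584 genes detected against 14598 to 15194 in the others, and with the transcript Gm42418 at 1722 CPM against 507 to 706 CPM. The targeted gene Sod3, which in R213G carries a substitution and is not deleted, had 4 and 47 counts in R213G and 47 and 96 counts in WT. The markers of the sort matched the gate. Fcgr1 (CD64) was at 255 and 248 CPM in R213G and 257 and 244 CPM in WT, Itgam (CD11b) at 876 and 713 CPM in R213G and 872 and 764 CPM in WT, and Siglecf at 12.3 and 11.5 CPM in R213G and 10.7 and 10.8 CPM in WT. Lyz2, the highest of the 8 gate and macrophage genes, reached 19436 and 23029 CPM in R213G and 24704 and 21866 CPM in WT. The 7 monocyte markers, led by Ccr2, summed to 1057 and 828 CPM in R213G and 902 and 1333 CPM in WT. The 8 resident alveolar macrophage markers summed to 1109 and 1181 CPM in R213G and 1102 and 1444 CPM in WT. Itgax alone supplied 850 and 902 CPM of this sum in R213G and 899 and 864 CPM in WT. Both lists hold Chil3, so their sums are not separate measures of the cell types. Markers of other cell types were lower. The 7 epithelial markers, led by Tppp3, summed to 137 and 127 CPM in R213G and 105 and 130.3 CPM in WT, the 4 endothelial markers measured, led by Vwf, to 102 and 141 CPM in R213G and 136 and 119 CPM in WT, and the 4 neutrophil markers measured, led by Csf3r, to 67.2 and 67.8 CPM in R213G and 84.2 and 82.7 CPM in WT. Dendritic and B cell markers were higher in replicate 1 than in replicate 2 of both genotypes. The 6 dendritic cell markers, led by Ccr7, summed to 139 and 43.6 CPM in R213G and 151 and 39.8 CPM in WT, and the 3 B cell markers measured, led by Ighm, to 24.4 and 8.02 CPM in R213G and 18.2 and 6.63 CPM in WT. The 3 T and NK cell markers measured, led by Cd3e, summed to at most 2.24 CPM, and Col1a1, the 1 fibroblast marker measured, to at most 0.0284 CPM. The part of other cell types in the autophagy transcripts was not tested.

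No gene of the autophagy machinery passed the test between R213G and WT macrophages. By the quasi-likelihood test of edgeR, with Benjamini-Hochberg adjustment over all 13575 genes tested and a threshold of 0.05 for the adjusted p, 0 of the 35 members passed, and 0% of all tested genes did. Every member had an adjusted p of 0.9996. In bulk libraries, fewer cells that express a gene and less RNA of it per cell cannot be told apart. At an unadjusted p under 0.05 there were also 0 members, against 2.22% of all tested genes, and the smallest unadjusted p of a member was 0.0717, for Ulk1. DESeq2 and limma voom called 0 members too. Leaving out R213G replicate 2 brought 5 members under an unadjusted p of 0.05 (Ulk1, Ulk2, Atg14, Atg9a and Sqstm1), all lower in R213G, where 13.5% of all tested genes came under it and the 5 adjusted p were 0.287 or more. There were 0 such members without R213G replicate 1, without WT replicate 1 and without WT replicate 2, against 1.48%, 0.491% and 1.44% of all tested genes. With 2 libraries per genotype the sizes that the data allow are therefore of more use than the p-values, and each difference is given as a log2 fold change (R213G minus WT) ± SE or with its 95% interval. The interval stayed within a 2-fold change in either direction for 31 of the 35 members, against 59.9% of all tested genes, and within a 1.5-fold change for 19, against 36.1%. Interval width follows the SE, whose median was 0.17 for the members and 0.26 for all tested genes. The contrast therefore does not show that the members are steadier between genotypes. The 4 members whose interval reached past 2-fold were Atg14, Wipi1, Map1lc3a and Gabarapl2, whose mean levels were all under 20 CPM. Atg10, Atg16l2 and Optn were also under 20 CPM, and their intervals stayed within 2-fold.

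**Figure D1:**
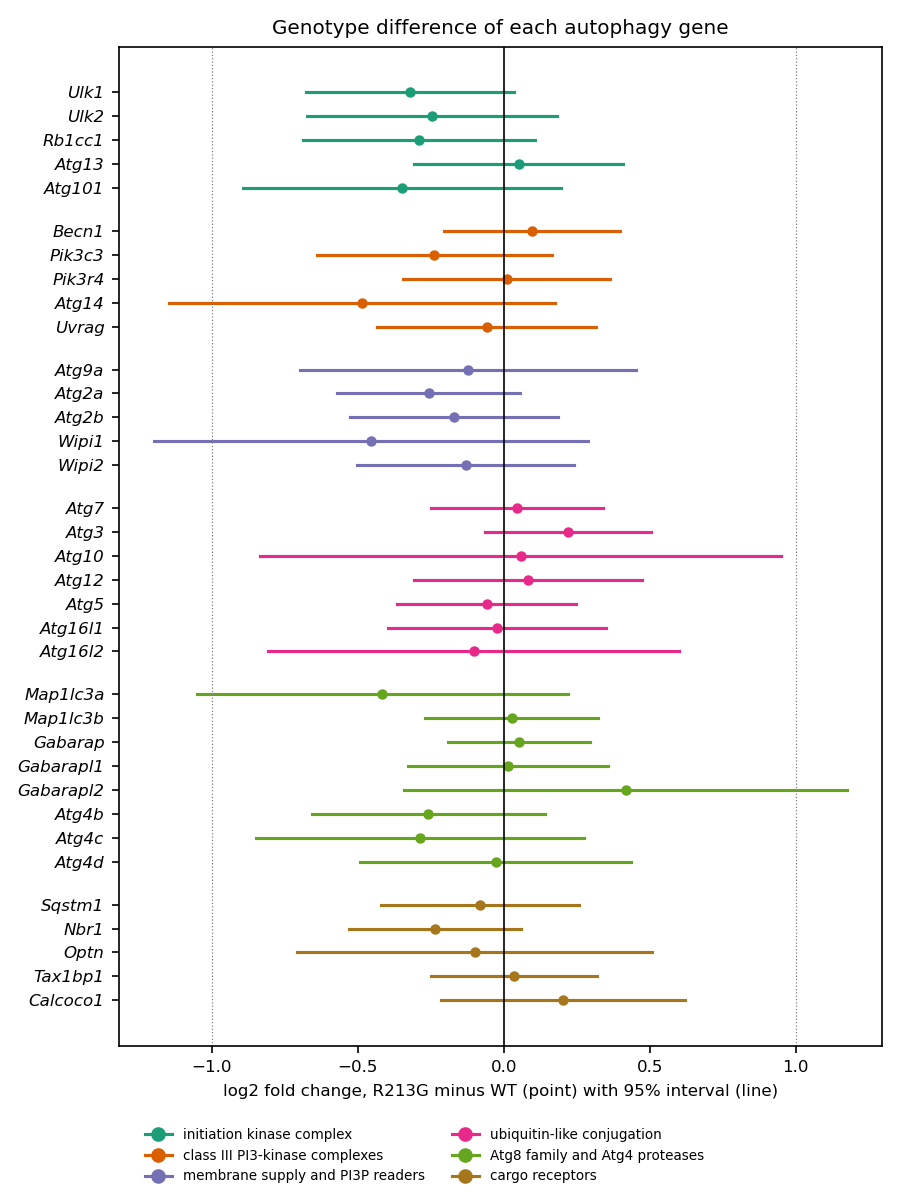
Log2 fold change of each of the 35 autophagy genes, R213G minus WT, on the horizontal axis, with its 95% interval as a line, coloured by step of the pathway, and dotted lines at a 2-fold change. All 35 intervals span 0, and 31 lie between the dotted lines.

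Per kb of annotated exon, the machinery was led by an Atg8-family protein and a cargo receptor. Gabarap stood at 336 ± 10.5 CPM per kb in R213G and 324 ± 11.1 CPM per kb in WT (SD, n = 2 each), above 99.4% of all tested genes. Sqstm1 followed at 116 ± 22.4 CPM per kb in R213G and 123 ± 14.6 CPM per kb in WT, and Gabarapl1 at 47.7 ± 2.14 CPM per kb in R213G and 47.3 ± 8.35 CPM per kb in WT. By this length, the 4-library ranges of these top 3 did not overlap with each other or with that of Atg3. Atg3 and Atg5 came next, at 38.1 ± 2.46 and 31.4 ± 2.04 CPM per kb in R213G and 32.7 ± 0.758 and 32.7 ± 0.205 CPM per kb in WT, and their ranges overlapped with each other and not with that of Atg7. From Atg7 at rank 6 to Rb1cc1 at rank 34, each gene's range overlapped with that of its neighbour in the order. The ranges alone therefore do not separate neighbours there, and neighbours were not compared within each library. Atg16l2 was last at 1.22 ± 0.113 CPM per kb in R213G and 1.30 ± 0.223 CPM per kb in WT. With the length of the principal transcript in place of all annotated exons, Gabarap, Sqstm1 and Atg16l2 held ranks 1, 2 and 35, while Wipi2 moved to rank 10 (25 by all exons) and Map1lc3b to rank 8 (14 by all exons). Rank 3 also changed hands by the principal transcript. Atg3 held it at 58.4 ± 3.78 CPM per kb in R213G and 50.1 ± 1.16 CPM per kb in WT. Tax1bp1 came next at 54.7 ± 0.897 CPM per kb in R213G and 53.4 ± 6.32 CPM per kb in WT, and Gabarapl1 was at rank 5 with 52.7 ± 2.37 CPM per kb in R213G and 52.3 ± 9.24 CPM per kb in WT. The third place of Gabarapl1 and its gap to Atg3 thus held by all exons and not by the principal transcript, and much of the order between Sqstm1 and Atg16l2 depends on which transcript is taken as the source.

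**Figure D2:**
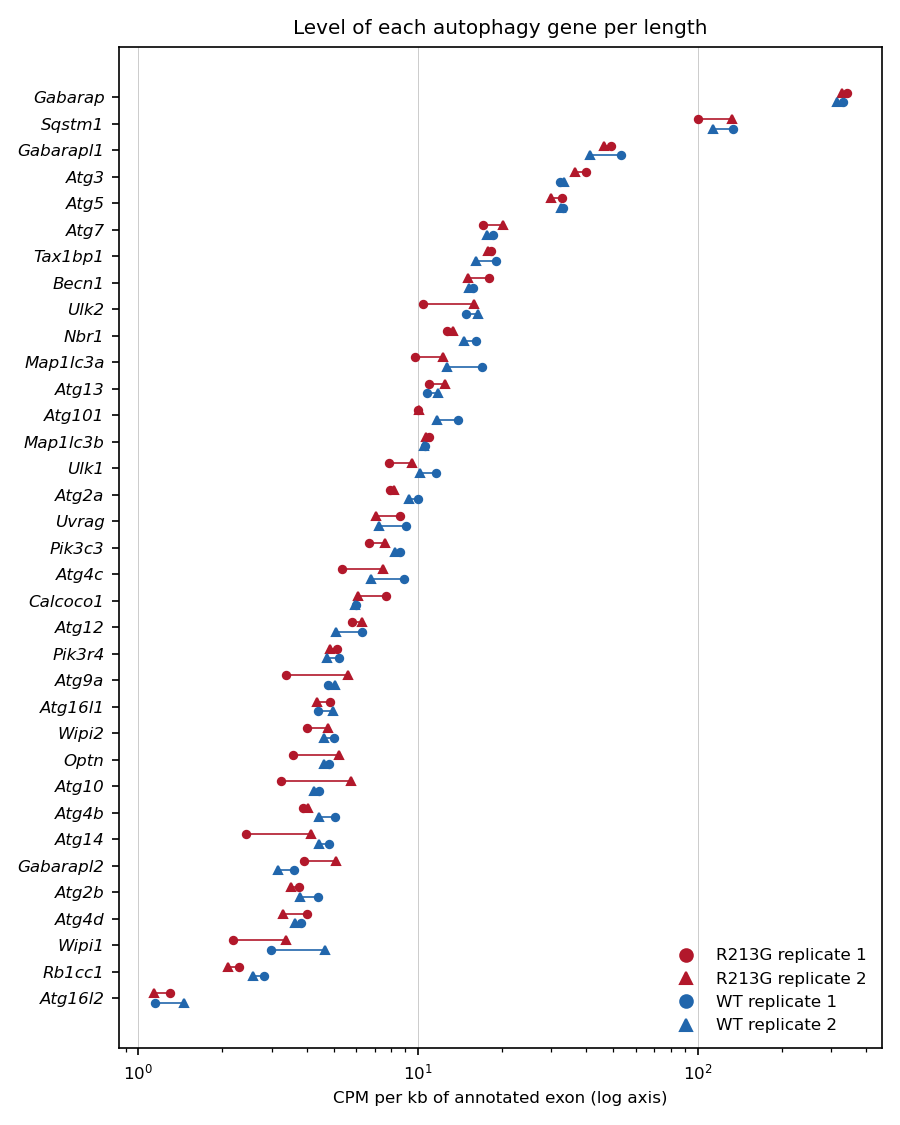
Level of each autophagy gene in CPM per kb of annotated exon, on a log axis, with the highest gene at the top. Circles are replicate 1 and triangles replicate 2, red for R213G and blue for WT, and Gabarap and Sqstm1 stand above all others in each of the 4 libraries.

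In the initiation complex, 4 of 5 members had a negative log2 fold change and 0 passed, with a median of -0.29 beside -0.01 over all tested genes. Ulk1, a kinase that starts autophagy when nutrients are short (chromosome 5, 110784488 to 110810097, minus strand, GRCm38), was at 51.2 and 61.6 CPM in R213G and 75.2 and 65.9 CPM in WT. Both R213G libraries lay below both WT libraries, by -0.32 ± 0.16 on the log2 scale, with an interval of -0.68 to 0.03. Atg101, which stabilises the complex, was at 16.0 and 16.1 CPM in R213G and 22.2 and 18.7 CPM in WT, a log2 fold change of -0.35 ± 0.24. Rb1cc1, the large scaffold also called FIP200, was at 33.7 and 30.8 CPM in R213G and 41.2 and 37.7 CPM in WT, a log2 fold change of -0.29 ± 0.18. For these 3 genes the groups did not overlap. Across all tested genes, both R213G libraries were below both WT libraries in 15.2% and above them in 13.7%. Ulk2, the second kinase, was at 62.4 and 95.2 CPM in R213G and 88.9 and 98.1 CPM in WT, so that R213G replicate 1 alone was low. Its log2 fold change of -0.25 ± 0.19 became 0.03 when R213G replicate 1 was left out and -0.59 when R213G replicate 2 was. Atg13, the adaptor that holds the kinase in the complex, was at 47.7 and 54.5 CPM in R213G and 47.2 and 51.5 CPM in WT, and the groups overlapped.

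The lipid kinase complexes share a catalytic subunit and differ in the subunit that sends them to the autophagosome or to the endosome. Becn1, the shared scaffold Beclin 1, was at 127 and 107 CPM in R213G and 111 and 108 CPM in WT, with an interval of -0.21 to 0.40 on the log2 scale. Pik3c3, the catalytic subunit Vps34, was at 29.9 and 34.0 CPM in R213G and 38.6 and 36.8 CPM in WT, a log2 fold change of -0.24 ± 0.18 with groups that did not overlap. Pik3r4, its regulatory partner Vps15, was at 49.6 and 46.8 CPM in R213G and 50.2 and 45.6 CPM in WT. The groups overlapped for Becn1 and Pik3r4. In this step both R213G libraries were below both WT libraries for 2 of 5 members, Pik3c3 and Atg14 (40%, against 15.2% of all tested genes). Atg14, which directs the complex to autophagosome formation (chromosome 14, 47540893 to 47570649, minus strand), was at 10.5 and 17.9 CPM in R213G and 20.7 and 19.1 CPM in WT. It had the lowest log2 fold change of all members, -0.49 ± 0.29, and R213G replicate 1 set most of it, since leaving that library out gave -0.15 and leaving out R213G replicate 2 gave -0.93. Uvrag, which takes the place of Atg14 in the endosomal complex, was at 78.1 and 63.9 CPM in R213G and 82.1 and 65.7 CPM in WT. Its interval was -0.43 to 0.32, and it differed more within each genotype than between them.

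All 5 genes of membrane supply and PI3P reading had a negative log2 fold change and 0 passed, with a median of -0.17. Over all tested genes the median was -0.01, and 49.1% were positive. R213G replicate 1 was the lowest library for 4 of the 5 genes of this step, against 36.5% of all tested genes. Atg9a, the membrane protein whose vesicles seed the autophagosome, was at 19.4 and 32.4 CPM in R213G and 27.4 and 29.1 CPM in WT. Its log2 fold change of -0.12 ± 0.26 turned to 0.20 when R213G replicate 1 was left out and stood at -0.55 when R213G replicate 2 was, so its direction rested on 1 library. Atg2a, a lipid transfer protein, was at 60.98 and 63.0 CPM in R213G and 77.1 and 71.2 CPM in WT, which did not overlap. The difference was -0.26 ± 0.14, larger than the gap between libraries within either genotype. Its paralog Atg2b was at 50.3 and 47.1 CPM in R213G and 59.0 and 50.8 CPM in WT, a log2 fold change of -0.17 ± 0.16. Wipi1 and Wipi2 bind PI3P, and Wipi2 brings in the conjugation enzymes. Wipi2 was at 42.1 and 50.2 CPM in R213G and 52.6 and 48.5 CPM in WT. Its log2 fold change of -0.13 ± 0.17 was -0.01 when R213G replicate 1 was left out. Wipi1 was at 9.61 and 14.9 CPM in R213G and 13.1 and 20.5 CPM in WT, the widest range over the libraries of any member (2.13-fold), and its interval ran from -1.20 to 0.29. The log2 fold change of Wipi1 was -0.46 ± 0.33, and it ranged from -0.81 to -0.10 when libraries were left out in turn.

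**Figure D3:**
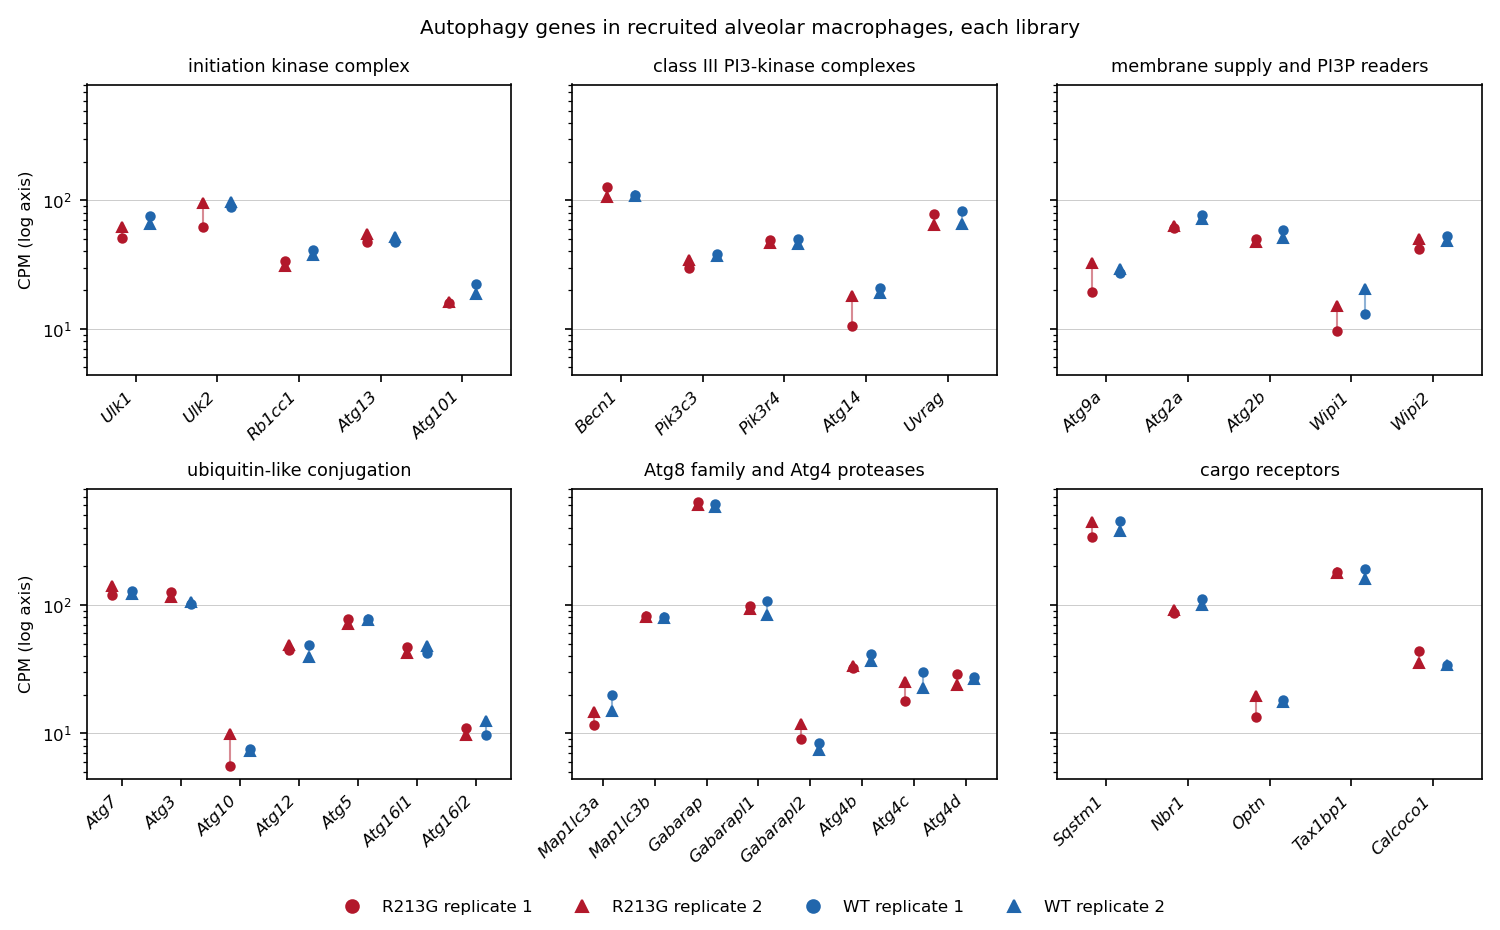
CPM of each autophagy gene in each library on a log axis, in 6 panels by step of the pathway, with R213G in red to the left of WT in blue, circles for replicate 1 and triangles for replicate 2. For Ulk2, Atg14, Atg9a and Atg10 the gap between the R213G libraries is wider than that between the WT libraries.

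The conjugation enzymes, which work as the E1, E2 and E3 enzymes of ubiquitin do, lay on both sides of 0. Of the 7 members, 4 had a positive and 3 a negative log2 fold change, with a median of 0.04, and 0 passed. Atg7, the activating enzyme for both conjugation reactions, was at 119 and 140.2 CPM in R213G and 129 and 123 CPM in WT, with an interval of -0.25 to 0.34. Atg3, which transfers the Atg8 proteins to lipid (chromosome 16, 45158785 to 45188538, plus strand), was at 126 and 115 CPM in R213G and 101 and 105 CPM in WT. Its log2 fold change was 0.22 ± 0.13, with an interval of -0.06 to 0.51, and both R213G libraries lay above both WT libraries. That held for 1 of the 7 members (14.3%), near the 13.7% of all tested genes, and 0 members lay below. Atg5, which joins Atg12 and Atg16l1 in the ligase, was at 77.3 and 70.5 CPM in R213G and 77.3 and 76.6 CPM in WT. Atg12 was at 44.8 and 48.5 CPM in R213G and 48.8 and 39.3 CPM in WT, and Atg16l1, which places the ligase on the membrane, was at 46.7 and 41.8 CPM in R213G and 42.2 and 47.8 CPM in WT. The groups overlapped for all 3 subunits. Per kb, Atg16l1 stood 3.74 and 3.82 times as high as its paralog Atg16l2 in R213G and 3.82 and 3.39 times as high in WT by all exons. The gap was wider by the principal transcript, with Atg16l1 at 14.2 ± 1.11 CPM per kb in R213G and 14.4 ± 1.25 CPM per kb in WT, and Atg16l2 at 1.60 ± 0.148 CPM per kb in R213G and 1.71 ± 0.292 CPM per kb in WT. Atg16l2 itself was at 11.0 and 9.63 CPM in R213G and 9.71 and 12.4 CPM in WT. Atg10, the transferring enzyme for Atg12, was at 5.57 and 9.89 CPM in R213G and 7.60 and 7.29 CPM in WT. The R213G libraries enclosed the WT libraries, and the log2 fold change of 0.06 became 0.41 with R213G replicate 1 left out and -0.42 with R213G replicate 2 left out.

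The letters CACGTG form the core of the site bound by TFEB, the transcription factor that drives many autophagy and lysosome genes. They were searched on both strands of the RefSeq promoter windows (GRCm38.p6, 250 bases before to 50 after the start), where 8.09% of 27025 genes held them. Among the members, 29 had a window and 4 of these held the letters, namely Atg7, Atg3, Atg5 and Atg14. The sites are printed as 30 bases in the direction of the gene with the letters in capitals, so that the members that hold them can be set beside their measured differences. Atg3 has 2 sites that share flanking bases. The windows of Atg7 and Atg14 belong to RefSeq starts that lie inside the annotated gene intervals. The annotated start is 114643097 for Atg7 (plus strand) and 47570649 for Atg14 (minus strand).
Atg7, chr6:114670952-114670981, plus strand: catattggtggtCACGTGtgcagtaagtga
Atg3, first site, chr16:45158723-45158752, plus strand: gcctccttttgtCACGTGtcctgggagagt
Atg3, second site, chr16:45158746-45158775, plus strand: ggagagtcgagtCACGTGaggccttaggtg
Atg5, chr10:44268313-44268342, plus strand: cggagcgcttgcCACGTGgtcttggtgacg
Atg14, chr14:47568418-47568447, minus strand: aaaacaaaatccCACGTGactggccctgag
The log2 fold changes of these 4 genes were 0.04 for Atg7, 0.22 for Atg3, -0.06 for Atg5 and -0.49 for Atg14, so genes that hold the letters lay on both sides of 0 and none passed. A match of letters is a description of the window and does not show binding.

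Together, the Atg8 family and the Atg4 proteases had 4 positive and 4 negative members, a median of -0.01, and 0 that passed. Gabarap (chromosome 11, 69991143 to 69994951, plus strand) was at 632 and 605 CPM in R213G and 611 and 582 CPM in WT, and its interval of -0.19 to 0.29 was the narrowest of all members. Map1lc3b, which encodes LC3B, the protein most used as a marker of autophagosomes (chromosome 8, 121590361 to 121598760, plus strand), was at 82.0 and 80.0 CPM in R213G and 79.9 and 79.2 CPM in WT. Its 4 libraries spanned 1.04-fold, the smallest range of any member, with an interval of -0.27 to 0.32 on the log2 scale. Gabarapl1 was at 99.0 and 92.9 CPM in R213G and 107 and 83.2 CPM in WT, so the WT libraries enclosed the R213G libraries. The members of the family with few counts had wider errors. Map1lc3a was at 11.6 and 14.5 CPM in R213G and 20.0 and 15.0 CPM in WT, a log2 fold change of -0.42 ± 0.28. Gabarapl2, the only family member with a log2 fold change above 0.06, was at 9.08 and 11.8 CPM in R213G and 8.35 and 7.34 CPM in WT, or 0.42 ± 0.34 with an interval of -0.34 to 1.18. Of the summed level of the 5 genes per kb, Gabarap made up 81.9 ± 0.519% in R213G and 81.0 ± 1.85% in WT, and Gabarapl1 11.6 ± 0.234% in R213G and 11.8 ± 1.42% in WT, both by all exons. By the principal transcript Gabarapl1 made up 9.40 ± 0.185% in R213G and 9.54 ± 1.20% in WT. Map1lc3b made up 2.63 ± 0.0186% in R213G and 2.65 ± 0.134% in WT by all exons, and 5.71 ± 0.0427% in R213G and 5.76 ± 0.26% in WT by the principal transcript. Map1lc3a made up 2.71 ± 0.502% in R213G and 3.69 ± 0.537% in WT by all exons. By the principal transcript it made up 2.10 ± 0.390% in R213G and 2.87 ± 0.433% in WT. The mean share of Map1lc3a was thus above that of Map1lc3b by all exons and below it by the principal transcript. By either length the order of Gabarap, then Gabarapl1, held in every library. Some of these counts could be shared with near copies, since 12.2% of the distinct 50-base stretches of annotated Gabarapl2 transcripts and 6.01% of those of Map1lc3b also stood in transcripts of other genes, among them processed pseudogenes, against 0% for Gabarap and Map1lc3a. For Gabarapl1 this share was 23.1%, all of it with 1700101I11Rik, a transcript that overlaps it on the opposite strand.

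The Atg4 proteases trim the Atg8 proteins before conjugation and release them afterwards. Atg4b, the main protease of the family, was at 32.2 and 33.4 CPM in R213G and 41.8 and 36.7 CPM in WT. These did not overlap, and the log2 fold change was -0.26 ± 0.18 with an interval of -0.66 to 0.14. Atg4c was at 17.9 and 25.1 CPM in R213G and 29.96 and 22.7 CPM in WT, and Atg4d at 29.2 and 23.8 CPM in R213G and 27.6 and 26.4 CPM in WT. Both overlapped between genotypes, and the log2 fold change of Atg4c, -0.29 ± 0.25, ranged from -0.55 to -0.07 when libraries were left out in turn. Atg4d shares 19.3% of its annotated exon bases with Kri1 on the opposite strand, and Kri1 had 1857 and 1726 counts in R213G and 1555 and 1791 counts in WT beside 996 and 829 counts in R213G and 913 and 906 counts in WT for Atg4d. No source used here gives the strand setting of the counting, so reads of that overlap cannot be told apart.

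Among cargo receptors, 2 of 5 had a positive and 3 a negative log2 fold change, and 0 passed. Sqstm1, which encodes p62, a receptor for ubiquitin-tagged cargo that is itself degraded by autophagy and is also a target of the antioxidant factor NRF2 (chromosome 11, 50199366 to 50210827, minus strand), was at 338 and 444 CPM in R213G and 448 and 379 CPM in WT. The lowest library was R213G replicate 1 and the next lowest WT replicate 2, so the groups overlapped. The log2 fold change was -0.08 ± 0.15 with an interval of -0.42 to 0.26, which in linear terms runs from 0.747-fold to 1.19-fold of WT. Leaving out R213G replicate 1 gave 0.10 and leaving out R213G replicate 2 gave -0.30, so no direction can be given. Nbr1, a receptor related to p62, was at 87.2 and 91.8 CPM in R213G and 111 and 100.2 CPM in WT. Its groups did not overlap, the log2 fold change was -0.24 ± 0.13, and it was -0.16 to -0.31 with each library left out in turn. Tax1bp1, which clears protein aggregates and damps inflammatory signalling, was at 182 and 178 CPM in R213G and 190.0 and 161 CPM in WT, with an interval of -0.25 to 0.32. Optn, a receptor for damaged mitochondria and bacteria, was at 13.4 and 19.6 CPM in R213G and 18.04 and 17.4 CPM in WT. Calcoco1, a receptor for the endoplasmic reticulum and Golgi, was at 43.9 and 34.98 CPM in R213G and 34.3 and 34.2 CPM in WT. R213G replicate 1 was the high library there, and the log2 fold change of 0.20 ± 0.19 was 0.03 without it. Per kb of all exons, Sqstm1 was 7.93 and 9.90 times as high as Nbr1 in R213G and 8.28 and 7.75 times as high in WT.

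Several members share annotated exon bases with a gene on the other strand. For Becn1 this was 43.9% of its exon bases, with Cntd1, and for Sqstm1 17.3%, with Mrnip. Cntd1 had 80 and 22 counts in R213G and 34 and 15 counts in WT, and Mrnip 127 and 88 counts in R213G and 36 and 65 counts in WT, each under 1% of the counts of its partner over the 4 libraries (0.982% and 0.577%). Gabarapl1 shares 28.3% with 1700101I11Rik, which had at most 27 counts in a library. Low counts of a partner do not show whether the member's reads over the overlap were counted, since the counting strand is not given. Levels per kb of all exons divide by a length that includes the overlap. Atg9a shares 31.8% with Gm29253 on its own strand, a transcript that is absent from the count table. Its share in the Atg9a counts could not be examined, and strand cannot separate reads of that overlap.

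Taking the 35 members together, 13 had a positive and 22 a negative log2 fold change, so 37.1% were positive beside 49.1% of all tested genes, and the median was -0.08 beside -0.01. Both R213G libraries were below both WT libraries for 10 members (28.6%, against 15.2% of all tested genes) and above them for 4 (11.4%, against 13.7%). The 10 were Ulk1, Rb1cc1, Atg101, Pik3c3, Atg14, Atg2a, Atg2b, Map1lc3a, Atg4b and Nbr1, and the 4 were Atg3, Map1lc3b, Gabarapl2 and Calcoco1. In 9 members the difference between genotype means was larger than the gap between the libraries of either genotype (25.7%, against 16.7%). A typical member differed by 0.12 on the log2 scale between genotypes (median size), while the median gap was 0.19 between the R213G libraries and 0.14 between the WT libraries.

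Single libraries moved many members at once. WT replicate 1 was the highest of the 4 libraries for 19 members (54.3%, against 24.8% of all tested genes), and R213G replicate 1 was the lowest for 17 (48.6%, against 36.5%). Relative to each gene's own mean, the median member was at -0.08 in R213G replicate 1 and -0.03 in R213G replicate 2, and at 0.09 in WT replicate 1 and 0.00 in WT replicate 2 on the log2 scale. For all tested genes these medians were -0.01 and 0.02 in the R213G libraries, against 0.01 and 0.02 in the WT libraries. Lowest in R213G replicate 1 were Ulk1, Ulk2, Atg101, Pik3c3, Atg14, Atg9a, Atg2a, Wipi1, Wipi2, Atg7, Atg10, Map1lc3a, Atg4b, Atg4c, Sqstm1, Nbr1 and Optn. In that library they ran from 5.57 CPM for Atg10 to 338 CPM for Sqstm1. Of other members with few counts, Gabarapl2 was lowest in WT replicate 2 and Atg16l2 in R213G replicate 2. R213G replicate 1 also had the fewest genes detected, and a link to the levels of the members was not tested.

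**Figure D4:**
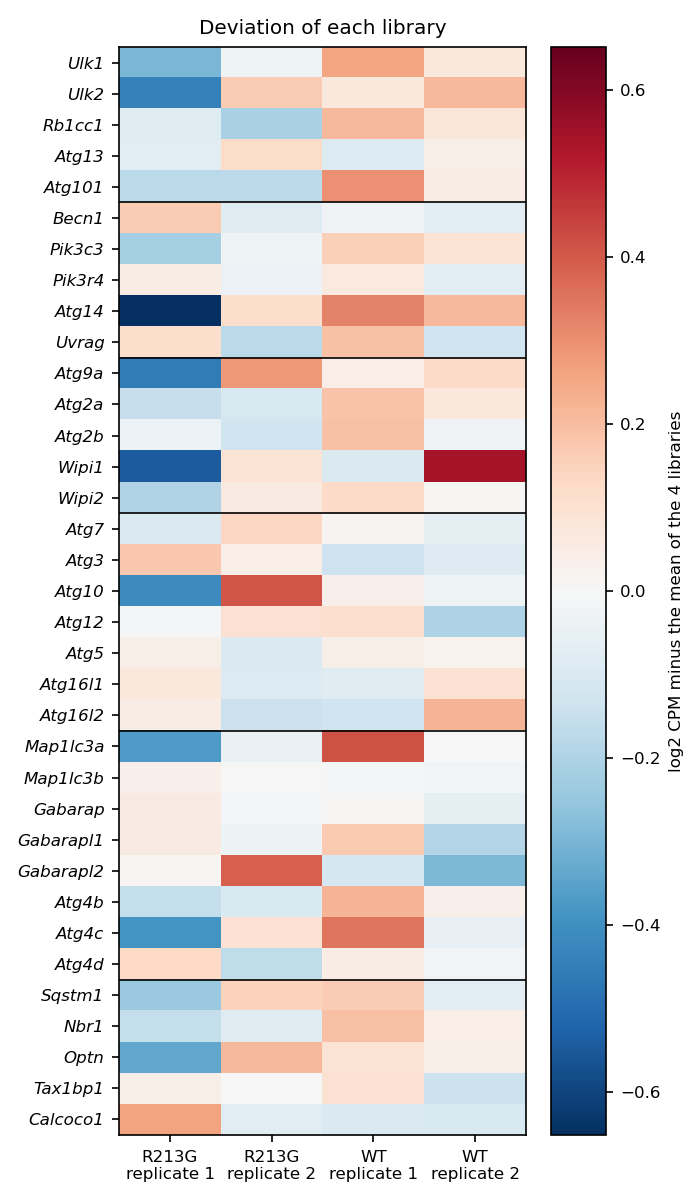
Deviation of each library from the mean of the 4 libraries in log2 CPM, with 1 row per autophagy gene, lines between the steps of the pathway, R213G on the left and WT on the right (blue low, red high). R213G replicate 1 is the lowest library for 17 genes and WT replicate 1 the highest for 19.

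Of the wider pathway, 58 further genes in 4 lists were examined, 56 were in the table and tested, and 0 passed in either direction. Their median log2 fold change was -0.02, with 25 positive and 31 negative. Nutrient sensing and transcriptional control had 6 positive and 12 negative members with a median of -0.07. The transcription factor Tfeb was at 93.6 and 84.0 CPM in R213G and 71.6 and 76.4 CPM in WT, a log2 fold change of 0.26 ± 0.14 with an interval of -0.05 to 0.57. Akt1s1, the mTORC1 inhibitor PRAS40, was at 55.7 and 62.3 CPM in R213G and 48.1 and 50.9 CPM in WT, or 0.25 ± 0.15. Both genes, named for the smallest p of their list, were higher in each R213G library than in each WT library without passing the test. The same held for 4 of the 18 tested genes of this list (22.2%). Over all 56 pathway genes it held for 7 (12.5%), against 13.7% of all tested genes. Autophagosome-lysosome fusion had 6 positive and 8 negative members with a median of -0.03, and 13 of its 14 intervals stayed within a 1.5-fold change. Its members of smallest p were Snap29, a fusion SNARE, at 119 and 124 CPM in R213G and 145 and 132 CPM in WT (-0.19 ± 0.12), and Vps11, a tethering subunit, at 112 and 108 CPM in R213G and 95.4 and 99.3 CPM in WT (0.18 ± 0.13).

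The 10 further core factors were split evenly by sign, with a median of -0.01. Wdr45, a PI3P-binding protein, was at 5.74 and 5.63 CPM in R213G and 2.24 and 5.86 CPM in WT, where WT replicate 1 alone was low, and its paralog Wdr45b was at 48.3 CPM in both R213G libraries and at 44.1 and 45.7 CPM in WT. The further selective receptors and kinases had 8 positive and 6 negative members with a median of 0.04. Tbk1, the kinase that activates Optn and p62 as receptors, was at 56.1 and 72.4 CPM in R213G and 76.0 and 75.6 CPM in WT (-0.24 ± 0.16), and Tollip, a receptor for protein aggregates, at 102 and 137 CPM in R213G and 112 and 98.6 CPM in WT (0.18 ± 0.16). Among all 50 pathway genes with a promoter window, 10 held CACGTG (20.0%), and 2 held the longer TFEB-type site, in which GT precedes and AC follows these letters, which 0.37% of all genes held and 0 members did. These 2 encode the fusion tether subunits Vps16 and Vps33a, and their sites are shown with the letters in capitals.
Vps16, chr2:130424290-130424319, plus strand: aggcggcctcGTCACGTGACcccgaagggc
Vps33a, chr5:123573010-123573039, minus strand: tgaacgtcccGTCACGTGACgcaggcggcg
Vps16 was at 40.2 and 55.2 CPM in R213G and 42.0 and 58.7 CPM in WT, a log2 fold change of -0.08 ± 0.21. Vps33a was at 106 and 136 CPM in R213G and 132 and 119 CPM in WT, a log2 fold change of -0.04 ± 0.15, and for both genes the groups overlapped.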

How the data were processed

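The deposited values are raw, unnormalized counts, in a table with gene symbols down the side and the 4 libraries across. STAR 2.5.1b, featureCounts, Subread 1.4.4 and the build GRCm38 are named, per the submitters' processing notes. No source used here gives the annotation release, the counting strand or how multi-mapped reads were handled. Poly(A) libraries were directional, per the labels' protocols. Short names in the labels tied each column to its sample.

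R213G was tested against WT with the edgeR 4.0.16 quasi-likelihood test (newer form, robust, TMM normalization, filterByExpr by group, 13575 genes, Benjamini-Hochberg adjustment, threshold 0.05) in R 4.3.3, with 2 residual degrees of freedom. CPM were computed on the filtered, TMM-scaled libraries, and those of the sort gate, markers, Sod3 and Gm42418 on total counts. SE is the size of the log2 fold change divided by the square root of F, and intervals use the total degrees of freedom of the fit. Genotypes not overlapping means that both libraries of one lie above both of the other. An exact permutation test of 2 against 2 libraries cannot give a two-sided p below 0.333 and was not used. Exon lengths and positions came from GENCODE vM21 (GRCm38), which matched 96.9% of symbols and all 35 members. The code was tested on simulated counts.

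The members and lists were chosen with earlier results of these data known. Named were all members, the 2 genes of smallest p in each pathway list, the highest gene of each marker list and Sod3. The TFEB-type sites, Vps16, Vps33a, Gm42418 and the overlapping genes were added after values were seen. The other settings tried were the legacy quasi-likelihood form, DESeq2 1.42.0 and voom in limma 3.58.1 as tests, scaling by upper quartiles or by size factors of DESeq2, filters of none or of a 5 CPM mean, a block for the replicate number, and each library left out. Principal transcript length was added after seeing the data.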

Additional observations from a re-analysis of the deposited data

How the results depend on the processing

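The count of members that passed was 0 under the main settings and under each of the 12 other settings, and so was that of the other pathway genes. The smallest adjusted p of any member under any of them was 0.287, for Ulk2 without R213G replicate 2. The median log2 fold change of the members stayed negative, at -0.13 to -0.03 with a library left out. Over all genes, DESeq2 called 1 gene, and leaving out 1 library gave 0 to 2 calls, with 2 only without R213G replicate 2. No scaling, filter or test changed the sign of a member. Leaving out libraries did so for 17 of 35, with log2 fold changes of -0.59 to 0.027 (Ulk2), -0.050 to 0.14 (Atg13), -0.030 to 0.21 (Becn1), -0.060 to 0.080 (Pik3r4), -0.21 to 0.11 (Uvrag), -0.55 to 0.20 (Atg9a), -0.079 to 0.16 (Atg7), -0.42 to 0.41 (Atg10), -0.066 to 0.24 (Atg12), -0.13 to 0.0025 (Atg5), -0.11 to 0.069 (Atg16l1), -0.27 to 0.085 (Atg16l2), -0.16 to 0.20 (Gabarapl1), -0.18 to 0.11 (Atg4d), -0.30 to 0.10 (Sqstm1), -0.41 to 0.15 (Optn) and -0.081 to 0.16 (Tax1bp1). With a library left out, the lone library of a genotype is assumed to vary like the other genotype's.

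The replicate numbers carry no stated pairing, and deviations of same-numbered libraries correlated at 0.093 over genes. With the replicate block the counts of members, other pathway genes and all genes that passed were 0, 0 and 0, and the median of the members was -0.09. Members such as Atg10, Gabarapl2, Wipi1 and Map1lc3a had few counts, and their intervals allow changes near or past 2-fold.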
